A study of Homo sapiens with 118 samples.

Results

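Mocetinostat at 1.595 µM was compared with apicidin at 0.5 µM in HepaRG cells, at concentrations where both histone deacetylase inhibitors changed the transcriptome to a similar extent. The comparison rests on 6 of the 118 samples of the series, namely the 3 libraries of mocetinostat C3 (the third of 5 concentrations, from C1 to C5) and the 3 libraries of apicidin C4 (the fourth). The 2 groups were selected on measured values, since they were matched by the overall size of the response of each compound from its own C1. HepaRG is an established human hepatic line from a liver tumour, labelled as progenitor cells and exposed here in its differentiated state, so that hepatocyte-like and biliary-like cells share a well. All cells received their compound daily for 72 hours, all 6 libraries lay on plate H, and replicates 1, 2 and 3 of both groups came from the same 3 batches of HepaRG cells. Transcripts were counted by TempO-Seq, in which pairs of probes are ligated on their target in the lysate and sequenced, and each probe is called a feature here and is printed as its gene symbol with the probe number. Solvent controls were not used here, so C1 of each compound (0.177 µM mocetinostat, 0.0417 µM apicidin) was the reference wherever a response is given.

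Histone deacetylases remove acetyl groups from lysines of histones and of many other proteins, and their inhibition raises acetylation and changes the transcription of many genes in both directions. Mocetinostat is a synthetic benzamide and apicidin is a cyclic tetrapeptide made by a fungus, and both are known mainly as inhibitors of the class I enzymes. In differentiated HepaRG cells the genes of interest include those of plasma proteins and of the acute-phase response, those of drug, lipid and bile acid metabolism, and those of the cell cycle, which such inhibitors are known to arrest. The compounds differ here in structure and in concentration, and these cannot be told apart. In such bulk lysates, fewer cells of a type and less RNA per cell cannot be told apart either.

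The 6 libraries held 3601315 to 4668066 counts. Hepatocyte markers were high in both groups, with a summed level of 17770 to 25960 CPM (TMM-normalised counts scaled to a common library size) under mocetinostat and 24000 to 31690 CPM under apicidin over 11 features of 10 genes. Biliary markers summed to 141 to 224 CPM and 161 to 237 CPM. Of the endothelial markers CDH5 and PECAM1 had no count, and of the leukocyte markers CD3E, LYZ, MARCO and PTPRC had none, in any of the 6 libraries. The 2 batch 1 libraries stood apart. On the log2 scale mocetinostat C3 of batch 1 correlated with the other 2 libraries of its group at 0.894 and 0.907 and with apicidin C4 of batch 1 at 0.932, whereas the batch 2 and 3 libraries of a group correlated at 0.956. Counts are therefore also given without batch 1.

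The sizes of response that chose the groups are given as a description. Against C1, and calling a feature changed at an adjusted p below 0.05 in edgeR's quasi-likelihood test with at least a 1.5-fold change, mocetinostat C3 differed in 2137 of 13684 tested features (15.6%) and apicidin C4 in 2408 (17.6%). The root mean square of the log2 changes was 1.16 and 1.19. The concentrations just below were further apart, with 676 features (4.94%) at mocetinostat C2 (0.532 µM) and 1594 (11.6%) at apicidin C3 (0.376 µM), and so were those just above, with 3780 (27.6%) at mocetinostat C4 (2.5 µM) and 3235 (23.6%) at apicidin C5 (0.86 µM). Apicidin C2 (0.125 µM) had 4 (0.0292%) and mocetinostat C5 (3.9 µM) 4661 (34.1%). Within each batch of the same libraries the root mean square change from C1 was 1.33 and 1.30 in batch 1, 1.102 and 1.114 in batch 2 and 1.14 and 1.06 in batch 3 for mocetinostat and apicidin.

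**Figure D1:**
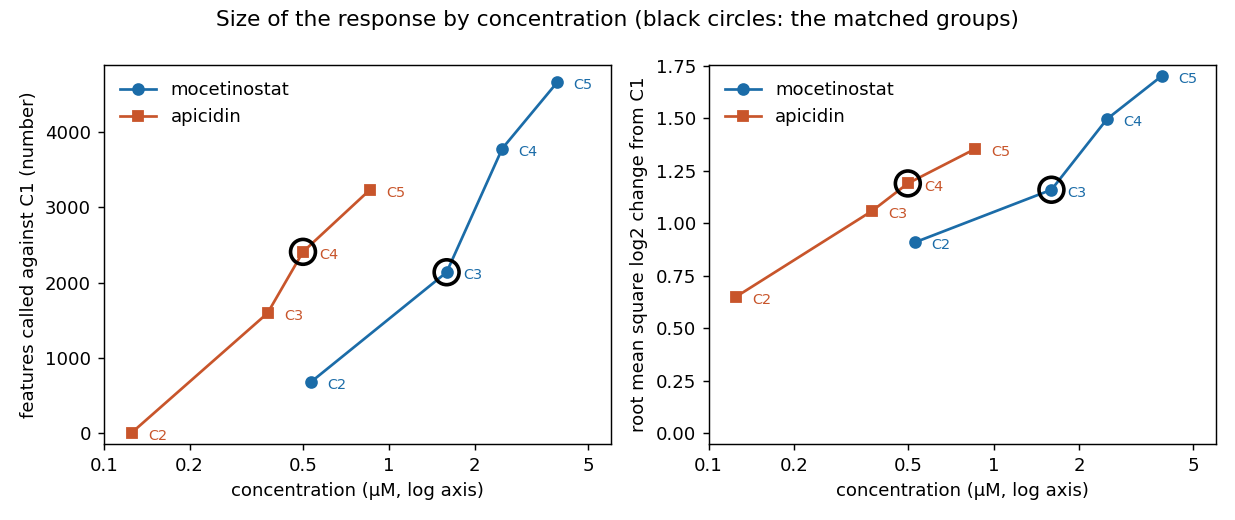
Number of features called against C1 (left) and root mean square log2 change from C1 (right) at C2 to C5 of mocetinostat (blue circles) and apicidin (orange squares), against the concentration in µM on a log axis. The circled groups, mocetinostat C3 and apicidin C4, had 2137 and 2408 called features.

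Between the matched groups 491 features were called (3.59%), of which 388 were higher under mocetinostat (2.84%) and 103 higher under apicidin (0.753%). Thus 79.0% of the calls were higher under mocetinostat. At C1 against C1 all 22 calls were higher under mocetinostat as well. No such excess was seen in the other comparisons of raised concentrations (given with those comparisons). The values of the groups did not overlap for 484 of the 491 (98.6%), against 16.9% of all tested features, and every one of the 491 had the same sign within each of the 3 batches, against 44.3% of all tested. The lack of overlap and the one sign describe features that were chosen in these same libraries, and are no further support. Without batch 1 the fit called 190 features higher and 30 lower, without batch 2 it called 75 and 8, and without batch 3 it called 166 and 31. In these fits 196, 82 and 186 of the 491 were still called the same way. All 491 kept their sign, which the one sign within each batch had largely fixed in advance. The 491 calls come from a model of all 30 libraries of both compounds. In a fit of the 6 libraries alone, 36 features were called without and 1145 with the batch (the replicate block) as a term.

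The same 2 compounds were also compared in libraries that the matched groups do not hold. Mocetinostat C4 against apicidin C3 gave 1548 called features (11.3%), 756 higher and 792 lower under mocetinostat (48.8% higher), and C5 against C5 gave 1933 (14.1%), 842 higher and 1091 lower (43.6% higher). The excess of calls higher under mocetinostat was therefore not seen in either. Unlike the main groups, these were not matched by size of response. Against C1, 3780 features were called at mocetinostat C4 and 1594 at apicidin C3, and 4661 and 3235 at C5 of mocetinostat and apicidin. The part of this inequality in the counts and in the wider gaps at C5 was not tested. Of the 491, 298 were called in the same direction in the former (60.7% of the 491 and 19.3% of the 1548) and 329 in the latter (67.0% of the 491 and 17% of the 1933), with 8 called the other way in each. In all 3 comparisons 258 features were called one way, 197 of them higher under mocetinostat and 61 higher under apicidin, and this count was 121 without batch 1, 45 without batch 2 and 91 without batch 3. At C1 against C1, where 22 features were called (0.161%), 7 of the 258 were called.

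**Figure D2:**
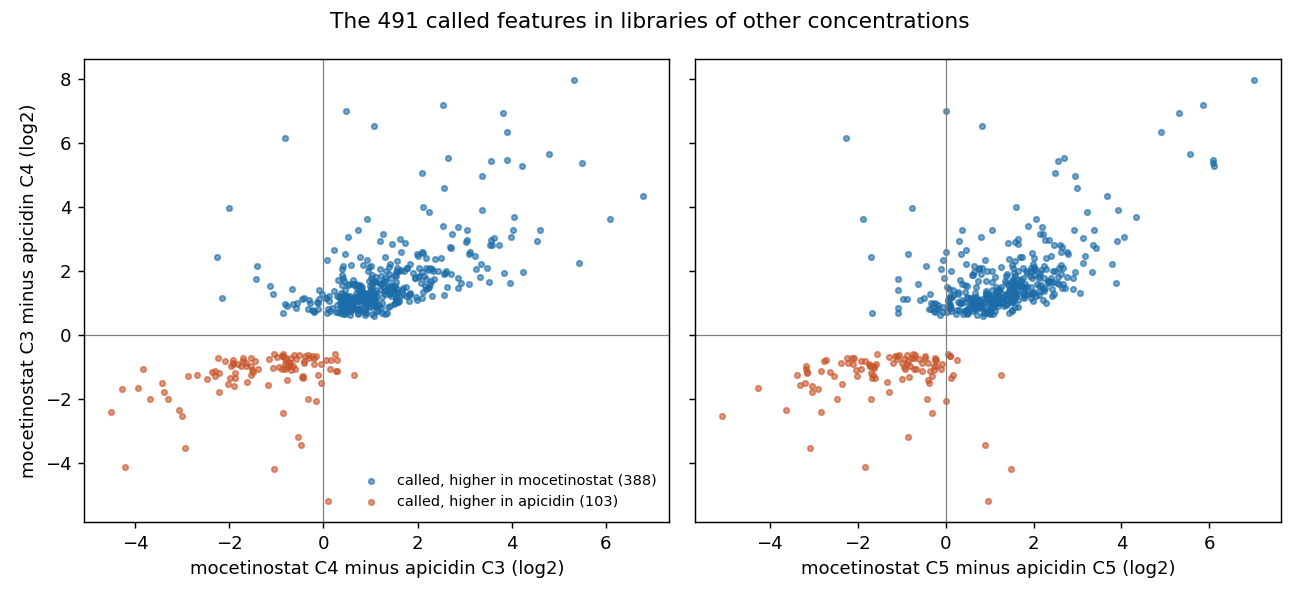
Log2 difference between mocetinostat C3 and apicidin C4 (vertical axis) of the 491 called features, against their log2 difference between mocetinostat C4 and apicidin C3 (left) and between C5 and C5 (right), which share no library with the vertical axis. Of the 388 features higher under mocetinostat (blue), 359 and 355 lie to the right of 0, and of the 103 higher under apicidin (orange), 94 and 92 lie to the left.

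Acute-phase transcripts gave some of the widest gaps. SAA2_33831, a probe for serum amyloid A2, a protein that the liver secretes in inflammation, was at 14810, 17240 and 15950 CPM in the 3 mocetinostat libraries and at 1202, 1974 and 1333 CPM in the 3 apicidin libraries. All mocetinostat values lay far above all apicidin values, and the log2 difference was 3.41 ± 0.22 (SE, n = 3 per group, edgeR adjusted p = 3.46e-11), or 10.65-fold. SAA1_22122 followed with 989, 2756 and 2523 CPM against 124, 365 and 213 CPM (log2 difference 3.16 ± 0.37, edgeR adjusted p = 3.54e-06), where batch 1 was the lowest library of both groups. SAA1 and SAA2 are near-identical copies, and how the probes share reads between them is uncertain. LBP_89491, for the protein that binds bacterial lipopolysaccharide, was at 1681, 937 and 789 CPM against 190.5, 166 and 103 CPM (log2 difference 2.89 ± 0.30, edgeR adjusted p = 7.73e-07). HP_3085, for haptoglobin, the scavenger of free haemoglobin, was at 12260, 10760 and 9851 CPM against 1897, 1649 and 1038 CPM (log2 difference 2.84 ± 0.29, edgeR adjusted p = 7.73e-07). These 4 features were also called in the other 2 comparisons of raised concentrations.

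The gap in serum amyloid A was already present at the lowest concentrations, whereas that in LBP was not called there. At C1, SAA2_33831 had a mean of 11620 CPM under mocetinostat and 2208 CPM under apicidin (log2 difference 2.40, edgeR adjusted p = 6.16e-08), and SAA1_22122 had 2434 and 388.5 CPM (log2 difference 2.65, edgeR adjusted p = 0.000358). Normalised over all libraries of the series, SAA2_33831 was at 12530 CPM at mocetinostat C1 and at 2376 CPM at apicidin C1. The other 6 inhibitors had 1701 to 4695 CPM at their C1, so that mocetinostat C1 lay above the range of the other C1 groups and apicidin C1 within it. Above C1, tacedinaline, the highest of these 6 at C1, had 10440 CPM at C2 and 6727 CPM at C3, and 2717 and 2177 CPM at C4 and C5. LBP_89491 had 2217 and 1308 CPM at C1 (edgeR adjusted p = 0.752). Its log2 change from C1 was -0.97 under mocetinostat C3 and -3.09 under apicidin C4, and these responses differed by 2.13 on the log2 scale (edgeR adjusted p = 0.0221). HP_3085 had 28740 and 12360 CPM at C1 (log2 difference 1.22, edgeR adjusted p = 0.0745). Its changes from C1 were -1.39 and -3.02, and the difference between these responses was not called (1.63, edgeR adjusted p = 0.0719). Of the 10 acute-phase features tested 3 were called, SAA1, SAA2 and LBP, all higher under mocetinostat (2.84% of all tested). The list median was 0.68 on the log2 scale against -0.03 over all tested features. CRP was near the floor, at 1.47 and 0.987 CPM, and LCN2 was at 97.6 and 98.1 CPM. The 3 calls were also made without any one of the batches. The summed hepatocyte markers, given above, overlapped between the groups and did not reach as high under mocetinostat as under apicidin. Their part in the acute-phase differences was not tested.

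Other secreted liver proteins were called in both directions. SERPINF2_19344, for the inhibitor of plasmin, was at 218, 183 and 161 CPM under mocetinostat and 57.3, 32.5 and 35.7 CPM under apicidin (log2 difference 2.16 ± 0.24, edgeR adjusted p = 2.55e-06). ORM1 and ORM2, the orosomucoids, differed by 1.21 and 1.27, and FGB and FGG, chains of fibrinogen, by 1.09 and 0.70 on the log2 scale. ITIH2, a chain of an inter-alpha-trypsin inhibitor, was lower under mocetinostat by 0.91 (84.1, 81.0 and 67.8 CPM against 114, 118 and 206 CPM). Of 38 plasma protein features 4 were higher under mocetinostat and 1 higher under apicidin, with a median of 0.15, and of 26 coagulation features 3 were higher and none lower, with a median of 0.42 (all tested features, 2.84% and 0.753%). Without batch 2 the plasma proteins had 2 calls, and without any one batch the coagulation list had 1 call higher under mocetinostat. FGG_23945 was 0.70 higher under mocetinostat in the matched comparison on the log2 scale, whereas the difference was -0.86 at mocetinostat C4 against apicidin C3 (edgeR adjusted p = 3.33e-05) and -1.67 at C5 against C5 (edgeR adjusted p = 9.49e-10). FGB_2397 differed by -0.59 at C5 and was not called there (edgeR adjusted p = 0.159). For FGG the difference between the matched and C5 differences, 2.37, passed the test (edgeR adjusted p = 7.32e-09).

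**Figure D3:**
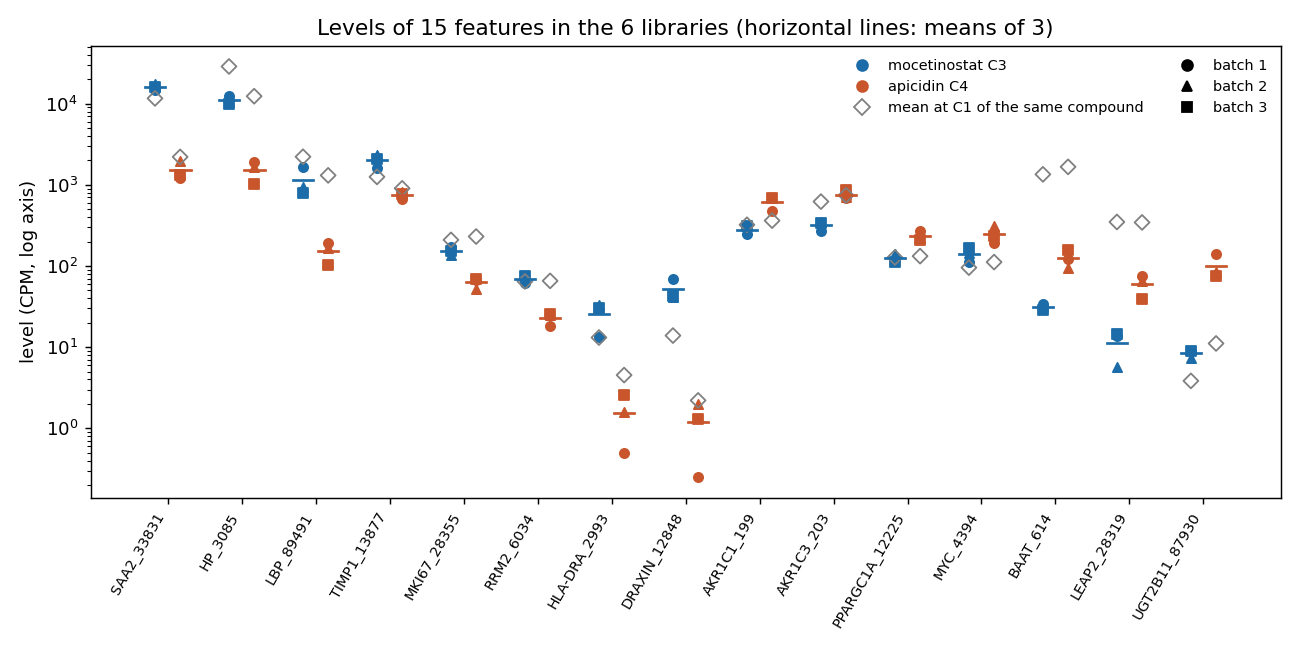
Level in CPM on a log axis of 15 features in the 3 libraries of mocetinostat C3 (blue) and the 3 of apicidin C4 (orange), with the batch given by the symbol, the group mean as a line and the mean at C1 of the same compound as a grey diamond. The 8 features on the left were higher under mocetinostat and the 7 on the right higher under apicidin, with no overlap between the groups.

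Of 35 tested features of the cell cycle and mitosis 13 were called higher under mocetinostat and none higher under apicidin, against 2.84% and 0.753% of all tested features. The list had 6 calls without batch 1, 2 without batch 2, 7 without batch 3, and none in the fit of the 6 libraries alone. All 35 differences were positive, with a median of 1.18 on the log2 scale. MKI67_28355, for the Ki-67 antigen of dividing cells, was at 171, 136 and 154 CPM under mocetinostat and at 67.8, 52.4 and 69.0 CPM under apicidin (log2 difference 1.29 ± 0.21, edgeR adjusted p = 0.000362). RRM2_6034, for a subunit of the ribonucleotide reductase that makes DNA precursors, was at 62.1, 70.0 and 74.5 CPM against 18.5, 24.6 and 25.6 CPM (log2 difference 1.59 ± 0.26, edgeR adjusted p = 0.000393). NUSAP1_4789, for a spindle protein, was at 349, 169 and 211 CPM against 113, 78.1 and 57.6 CPM (log2 difference 1.55 ± 0.28, edgeR adjusted p = 0.000919). The groups did not overlap in any of these, and in RRM2 and MKI67 the 3 batches lay close together. The other called members ranged from 0.65 for MCM3, a subunit of the replicative helicase, to 2.07 for KIF20A, a mitotic kinesin, and comprised AURKB, CDC45, CDC6, CDK1, KIF11, MCM5, TPX2 and TYMS.

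The promoters of 3 of these genes are shown because, of the 4 called genes whose window holds both letter patterns often found in genes of late cell cycle phases, the CCAAT box (CCAAT, bound by NF-Y) and the cell cycle homology region (TTTGAA), they had the lowest adjusted p (the other gene was KIF11). The patterns are in capitals on either strand. The sequences are the RefSeq windows of GRCh38.p14 from 250 bases before to 50 after the start, at chr10:128126374-128126673, minus strand, chr15:41332631-41332930, plus strand and chr10:60778081-60778380, plus strand, and each is written 5′ to 3′ along the gene. In MKI67 the second TTTGAA overlaps a CCAAT box on the opposite strand.
MKI67: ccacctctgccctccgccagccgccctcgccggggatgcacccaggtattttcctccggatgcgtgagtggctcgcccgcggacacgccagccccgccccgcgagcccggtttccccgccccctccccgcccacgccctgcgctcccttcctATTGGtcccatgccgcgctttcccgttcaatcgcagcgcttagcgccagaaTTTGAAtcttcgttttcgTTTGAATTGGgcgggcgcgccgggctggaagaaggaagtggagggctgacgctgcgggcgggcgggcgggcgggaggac
NUSAP1: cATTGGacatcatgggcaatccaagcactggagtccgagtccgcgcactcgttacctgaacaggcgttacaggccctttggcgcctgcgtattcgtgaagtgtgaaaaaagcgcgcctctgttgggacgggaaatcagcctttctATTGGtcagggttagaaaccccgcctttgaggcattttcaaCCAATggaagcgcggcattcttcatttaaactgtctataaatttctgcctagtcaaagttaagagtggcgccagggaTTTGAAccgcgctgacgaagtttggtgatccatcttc
CDK1: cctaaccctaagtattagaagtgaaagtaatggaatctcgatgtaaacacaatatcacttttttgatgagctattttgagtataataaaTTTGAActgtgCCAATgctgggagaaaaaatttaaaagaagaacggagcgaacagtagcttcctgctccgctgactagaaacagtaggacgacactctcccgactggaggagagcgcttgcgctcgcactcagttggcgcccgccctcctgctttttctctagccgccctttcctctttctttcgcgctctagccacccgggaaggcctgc
Of the 13 called cell cycle genes 11 had a window, and 10 of these held CCAAT and 4 held TTTGAA. Of the 27 tested genes of the list with a window 22 held CCAAT and 10 held TTTGAA. Over all 27195 windows of this length 35.7% held CCAAT and 15.4% held TTTGAA, and over the 9787 windows of tested genes 37.4% and 10.5%. A match is a description of letters and was not tested as a site.

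The cell cycle transcripts lay further below C1 in the apicidin libraries than in the mocetinostat libraries, as a description with the same libraries. From C1, the median log2 change of the 35 features was -0.22 under mocetinostat C3 and -1.36 under apicidin C4. At C1 against C1 the median difference was 0.04 with no call, at mocetinostat C4 against apicidin C3 it was 0.57 with 5 calls, and at C5 against C5 it was 1.49 with 20 calls, all of them higher under mocetinostat. The shares of all tested features called higher under mocetinostat in the last 2 comparisons were 5.52% and 6.15%. Of the clustered replication-dependent histones, made mainly in S phase, 3 of 11 features were called higher under mocetinostat (2.84% of all tested) and none lower, with 1 call without batch 1, none without batch 2, 1 without batch 3 and none in the 6 libraries alone. HIST1H1B_14547 was at 191, 121 and 160 CPM against 88.0, 41.0 and 50.1 CPM (log2 difference 1.40 ± 0.36, edgeR adjusted p = 0.0224). Its batch 1 values were identical to those of HIST2H2AA3_33584, another of the 3 (191, 217 and 294 CPM against 88.0, 133 and 140.3 CPM), so the batch 1 values of both are in doubt, for a reason that was not tested. H2AFX, a histone variant that marks DNA breaks when phosphorylated, differed by 0.76, and CDKN3, a phosphatase of cyclin-dependent kinases, by 1.25 on the log2 scale.

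**Figure D4:**
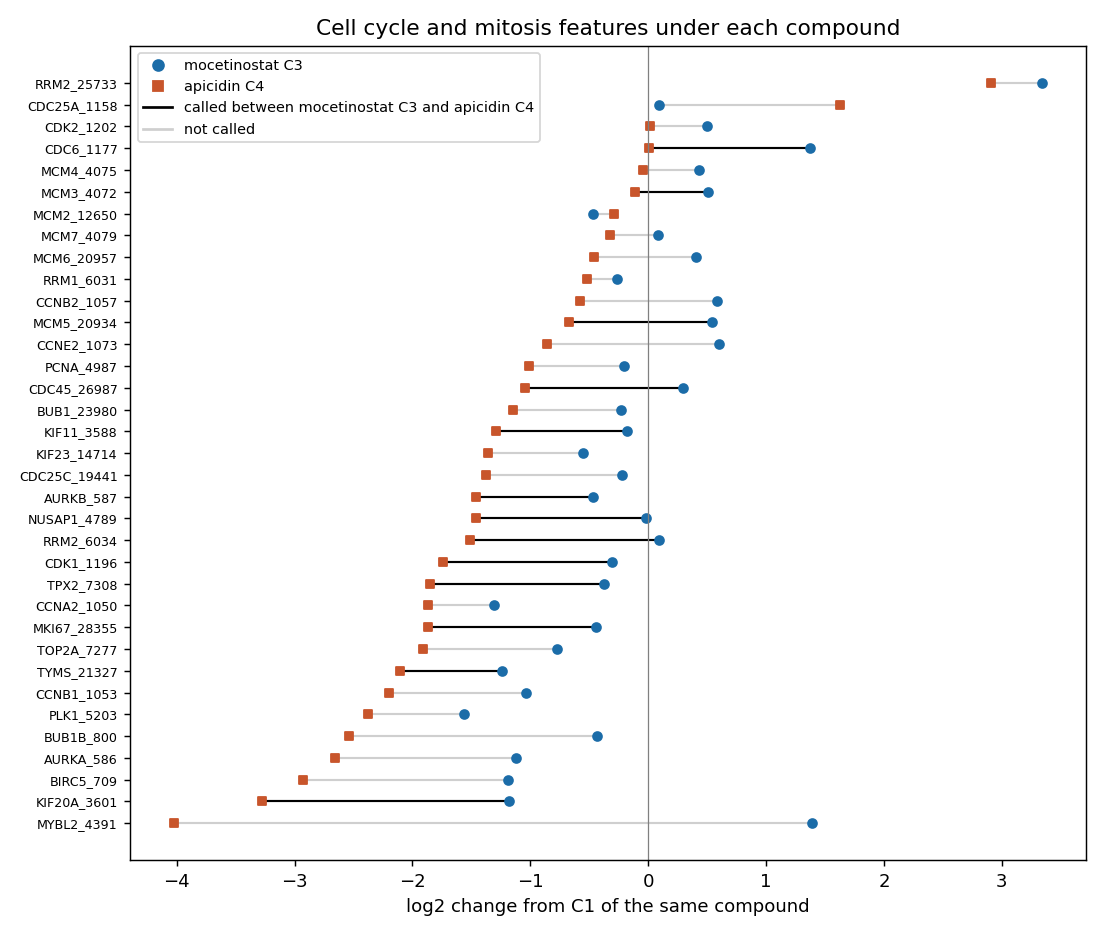
Log2 change from C1 of the same compound for the 35 tested features of the cell cycle and mitosis list, with mocetinostat C3 as blue circles and apicidin C4 as orange squares, joined by a black line where the feature was called between the 2 groups and by a grey line where it was not. The median was -0.22 for mocetinostat and -1.36 for apicidin.

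The test of the difference between the 2 responses, which uses the same 6 libraries together with the C1 libraries, called 24 features (0.175%), 17 with a more positive response under mocetinostat and 7 under apicidin, and 40 with the replicate block. The count was 0 without batch 1, 0 without batch 2 and 2 without batch 3. The features are named here after their values were seen. ANLN_12002, for anillin of the cleavage furrow, had log2 changes from C1 of 0.24 and -1.40 (difference 1.64, edgeR adjusted p = 0.0142), and KIF2C_3603, a kinesin that takes spindle microtubules apart, had -0.17 and -2.00 (difference 1.82, edgeR adjusted p = 0.0153). The others of the 17 were MKI67, ASF1B, a histone chaperone, BLM, a DNA helicase, CENPU, a kinetochore protein, TK1, thymidine kinase, TFDP1, the partner of E2F factors, and AKT1, ARRB1, DMKN_27125, LAPTM4B, LBP, NUP210, SERPINF2, TCHH and TIMP1_13877. The 7 on the other side were AOX1, BAAT, BCL6, CHMP1A, CUX2, LEAP2 and TSKU.

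Of 21 antigen presentation features 3 were called, all higher under mocetinostat (2.84% of all tested), with 2 calls without batch 1, 1 without batch 2 and 2 without batch 3. HLA-DRA_2993, for the alpha chain of a class II molecule, was at 13.2, 33.0 and 30.3 CPM against 0.499, 1.57 and 2.59 CPM (log2 difference 4.02 ± 0.57, edgeR adjusted p = 5.39e-05). NLRC5_25496, for the activator of class I genes, was at 19.2, 13.2 and 16.2 CPM against 2.24, 0.672 and 2.07 CPM (log2 difference 3.28 ± 0.69, edgeR adjusted p = 0.0046). CIITA_90570, for the activator of class II genes, was at 46.5, 9.57 and 13.6 CPM against 6.48, 0.448 and 2.07 CPM (log2 difference 2.95 ± 0.80, edgeR adjusted p = 0.0348), and here batch 1 was the highest library of both groups. Of the 21 features 18 had a positive difference, with a median of 0.54. At C1 against C1 the list median was already 0.55, with no call. The C1 means under mocetinostat and apicidin were 13.1 and 4.52 CPM for HLA-DRA, 11.0 and 6.31 CPM for NLRC5 and 15.2 and 5.23 CPM for CIITA. The difference between the 2 responses from C1 was not called for any of these (edgeR adjusted p = 0.244, 0.471 and 0.973). NLRC5 and CIITA were not called at C5 against C5, where they differed by 0.37 and 0.29.

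Of 20 chemokine and cytokine features 4 were called, all higher under mocetinostat (2.84% of all tested). CXCL10_33507, an interferon-induced attractant of T cells, was at 4.67, 13.6 and 6.17 CPM against 0, 1.12 and 1.29 CPM (log2 difference 3.30 ± 0.81, edgeR adjusted p = 0.0169). CXCL1, CXCL2 and CXCL8, attractants of neutrophils, differed by 0.80, 0.81 and 0.66. All of these lay below C1, with log2 changes of -1.85, -2.15 and -0.54 under mocetinostat and -2.41, -2.67 and -0.86 under apicidin. At mocetinostat C4 against apicidin C3, CXCL1 and CXCL8 were called higher under mocetinostat and CXCL2 was not called. At C5 against C5 none of these was called. None of the 4 was called without batch 1 or without batch 2, and 1 was called without batch 3. Of 29 interferon-stimulated features 1 was called, a share near that of all tested features (3.59%). It was OAS3, an interferon-induced sensor of double-stranded RNA (41.0, 26.8 and 24.4 CPM against 8.23, 5.82 and 7.24 CPM, log2 difference 2.11 ± 0.39, edgeR adjusted p = 0.00116). The summed leukocyte markers were at 28.6 to 56.6 CPM under mocetinostat and 28.4 to 65.4 CPM under apicidin, and 5 of the 7 had at most 3 counts in all 6 libraries.

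Matrix and remodelling genes were the second group by number of calls, with 10 of 37 features higher under mocetinostat, 1 higher under apicidin and a median of 0.59. The shares of all tested features were 2.84% and 0.753%. At C1 against C1 the list median was 0.33, with no call. TIMP1, the tissue inhibitor of metalloproteinases, was called by both of its probes. TIMP1_13877 was at 1633, 2345 and 2063 CPM against 660.1, 805 and 764 CPM (log2 difference 1.44 ± 0.15, edgeR adjusted p = 7.73e-07) and TIMP1_7107 differed by 1.23 ± 0.20. The gap was wider at C5 against C5, at 2.42 for both probes. The matrix metalloproteinases MMP10, MMP2 and MMP7 differed by 1.83, 1.44 and 1.70, the laminin chains LAMA3 and LAMB1 by 1.02 and 1.05, and LUM, THBS1 and TNC, for lumican, thrombospondin and tenascin, by 1.17, 0.93 and 0.71. CCN2, a matricellular growth factor and target of YAP, was the member higher under apicidin (43.2, 33.8 and 46.0 CPM against 108, 90.2 and 70.0 CPM). At mocetinostat C4 against apicidin C3 the list had 5 calls higher and 4 lower under mocetinostat, with a median of 0.02 (all tested features, 5.52% and 5.79%). At C5 against C5 it had 8 higher and 7 lower, with a median of 0.16 (all tested features, 6.15% and 7.97%). TNC was called the other way at C5 against C5 (-1.08, edgeR adjusted p = 0.000371). Without batch 1 and without batch 2 the list had 2 calls each between the matched groups. The summed stellate and fibroblast markers were 70.6 to 107 CPM under mocetinostat and 46.8 to 74.8 CPM under apicidin over 7 features of 6 genes, with DES at 0 in all 6 libraries, and their part in these differences was not tested.

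Lipid genes were called in one direction between the matched groups, with 6 of 33 features of lipogenesis and lipid droplets higher under mocetinostat (2.84% of all tested) and a median of 0.34. At C1 against C1 the list median was already 0.46, with 2 calls. The median difference between the 2 responses from C1 was -0.20. FASN_11197, for fatty acid synthase, was at 732, 786 and 925 CPM against 510.0, 324 and 405 CPM (log2 difference 0.98 ± 0.18, edgeR adjusted p = 0.00125), and PLIN2_21957, for a coat protein of lipid droplets, was at 243, 198.8 and 216 CPM against 115, 62.0 and 69.8 CPM (log2 difference 1.41 ± 0.27, edgeR adjusted p = 0.00153). Both were also called at C1, where the means were 1523 and 807 CPM for FASN and 292 and 84.1 CPM for PLIN2. AGPAT2, FADS1, PLIN3 and PLIN5 were the other 4, with differences of 1.27, 0.96, 1.08 and 3.16. The split of calls differed in the other libraries, where 1 feature of the list was higher and 7 lower under mocetinostat at C4 (2.5 µM) against apicidin C3 (0.376 µM, below the matched 0.5 µM), and 1 was higher and 4 lower at C5 against C5. Of all tested features 5.52% were higher and 5.79% lower in the former, and 6.15% and 7.97% in the latter. FASN, AGPAT2 and FADS1 differed by -0.64, -1.07 and -0.82 at mocetinostat C4 against apicidin C3, and PLIN2 by -1.08 at C5 against C5, each called there. Without batch 2 no lipid feature was called. FABP4, a fatty acid carrier of adipocytes, was at 114, 121 and 94.3 CPM against 43.1, 58.2 and 54.0 CPM, while its level at C1 was 2.75 and 3.56 CPM. Its call (edgeR adjusted p = 0.0499) was lost with the replicate block (edgeR adjusted p = 0.054).

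On the side of apicidin lay the aldo-keto reductases of family 1C, which reduce steroids and carbonyl compounds and are targets of the oxidative stress factor NRF2. AKR1C1_199 was at 249, 281 and 308 CPM under mocetinostat and at 469, 682 and 690 CPM under apicidin (log2 difference -1.14 ± 0.18, edgeR adjusted p = 0.000211). AKR1C3_203 was at 269, 349 and 336 CPM against 682, 707 and 874 CPM, and the second probe, AKR1C3_26820, at 222, 381 and 420 CPM against 550.4, 852 and 940 CPM (log2 differences -1.25 ± 0.26 and -1.20 ± 0.27). AKR1C2_28246 differed by -0.98 and AKR1C4_89565, a liver enzyme of bile acid synthesis, by -1.16. The log2 changes from C1 under mocetinostat and apicidin were -0.20 and 0.76 for AKR1C1_199, 0.83 and 1.40 for AKR1C2_28246 and -0.97 and 0.02 for AKR1C3_203. The difference between the 2 responses was not called for any probe of the family named here (edgeR adjusted p = 0.135 to 0.845). The NRF2 list had 4 of 27 features higher under apicidin (0.753% of all tested) and none higher under mocetinostat, with a median of -0.31. All 4 were probes of this family, so the calls of the list are those of 1 gene cluster. Without batch 2 none was called. The gap was wider at C5 against C5, at -2.82 for AKR1C1_199 and -3.38 for AKR1C3_203. There 12 NRF2 features were higher under apicidin and 1 higher under mocetinostat (all tested features, 7.97% and 6.15%).

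The promoters of the 3 called genes of this list are shown since these genes moved together and are close copies, for which the assignment of reads to a probe is uncertain. They lie at chr10:4963165-4963464, plus strand, chr10:5003808-5004107, minus strand and chr10:5048531-5048830, plus strand (RefSeq, GRCh38.p14), written 5′ to 3′ along each gene, with CCAAT boxes and the TTTGAA of AKR1C3 on either strand in capitals. The windows of AKR1C1 and AKR1C2 share an unbroken run of 245 identical bases, and those of AKR1C1 and AKR1C3 one of 18.
AKR1C1: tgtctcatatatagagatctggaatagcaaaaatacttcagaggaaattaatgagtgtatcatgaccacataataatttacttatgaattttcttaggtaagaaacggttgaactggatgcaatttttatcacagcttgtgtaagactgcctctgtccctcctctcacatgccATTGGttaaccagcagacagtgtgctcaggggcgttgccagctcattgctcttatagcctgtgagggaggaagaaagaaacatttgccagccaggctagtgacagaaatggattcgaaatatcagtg
AKR1C2: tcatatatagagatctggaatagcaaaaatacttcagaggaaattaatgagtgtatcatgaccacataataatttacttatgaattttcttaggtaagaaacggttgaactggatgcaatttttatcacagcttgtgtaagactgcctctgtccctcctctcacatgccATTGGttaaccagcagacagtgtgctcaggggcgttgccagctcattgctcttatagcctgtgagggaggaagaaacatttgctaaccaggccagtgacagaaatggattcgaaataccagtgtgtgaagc
AKR1C3: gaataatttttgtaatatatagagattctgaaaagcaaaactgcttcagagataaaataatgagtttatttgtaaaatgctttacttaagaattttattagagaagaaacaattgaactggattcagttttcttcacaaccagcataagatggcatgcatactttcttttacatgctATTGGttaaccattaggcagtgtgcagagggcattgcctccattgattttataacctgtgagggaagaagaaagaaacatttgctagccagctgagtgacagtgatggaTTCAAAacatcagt
Each of the 3 windows holds 1 CCAAT box, as do 35.7% of all windows, counting those with 1 or more.

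BAAT, LEAP2 and CPS1, all below their C1 levels under both compounds, were higher under apicidin, while other hepatic genes below C1 were higher under mocetinostat, such as CYP2E1, a cytochrome P450 (log2 changes from C1 of -1.78 under mocetinostat and -3.47 under apicidin), and SERPINF2 (-1.76 and -3.50). BAAT_614, for the enzyme that conjugates bile acids to amino acids, was at 34.4, 31.9 and 28.5 CPM under mocetinostat and at 122, 95.2 and 160 CPM under apicidin, from 1347 and 1665 CPM at C1 (log2 difference -1.99 ± 0.24, edgeR adjusted p = 6.69e-06). LEAP2_28319, for a liver peptide hormone that opposes ghrelin, was at 13.7, 5.74 and 14.4 CPM against 75.3, 65.6 and 39.0 CPM, from 349 and 344 CPM (log2 difference -2.42 ± 0.36, edgeR adjusted p = 7.93e-05). CPS1_15784, for the first enzyme of the urea cycle, was at 8.52, 11.3 and 10.0 CPM against 37.6, 31.8 and 33.3 CPM, from 65.1 and 101 CPM (log2 difference -1.78 ± 0.32, edgeR adjusted p = 0.000892). All 3 were called in the same direction at mocetinostat C4 against apicidin C3 and at C5 against C5, and BAAT and LEAP2 also differed between the 2 responses (-1.68 and -2.44, edgeR adjusted p = 0.0221 for both), whereas CPS1 did not pass that test (-1.14, edgeR adjusted p = 0.498).

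Other features higher under apicidin included regulators. PPARGC1A_12225, for a coactivator of mitochondrial and gluconeogenic genes, was at 122, 141 and 112 CPM against 268, 223 and 208 CPM (log2 difference -0.90 ± 0.18, edgeR adjusted p = 0.00289). MYC_4394 was at 113, 143 and 167 CPM against 191, 311 and 236 CPM (log2 difference -0.80 ± 0.20, edgeR adjusted p = 0.0172), and HSPB8, a small heat shock protein, differed by -0.70. Each gap was wider at C5 against C5, at -2.11, -1.93 and -2.25. UGT2B11_87930, for a glucuronosyltransferase with close paralogs, so that its reads may be shared, was at 9.07, 7.44 and 8.99 CPM against 139, 84.2 and 75.5 CPM (log2 difference -3.55 ± 0.41, edgeR adjusted p = 3.38e-06). SCGN, GPM6B, C5orf46 and SLC25A18 were also called in this direction in all 3 comparisons of raised concentrations, of which C5orf46 lost the call between the matched groups with the replicate block. HBG1, a fetal globin with a near-identical copy, was at 18.1, 15.3 and 27.7 CPM against 50.1, 54.9 and 52.2 CPM, from 1.35 and 1.55 CPM at C1.

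Some of the largest differences belonged to features with few counts in the lower group. DRAXIN_12848, for a guidance protein of axons, was at 69.5, 41.9 and 42.9 CPM under mocetinostat and at 0.249, 2.02 and 1.29 CPM under apicidin (log2 difference 5.38 ± 0.54, edgeR adjusted p = 7.12e-07), and it was already higher at C1 (13.9 and 2.21 CPM). REEP1, a shaper of the endoplasmic reticulum, was at 36.6, 61.7 and 69.9 CPM against 6.48, 4.03 and 2.33 CPM, and IGFBP3, a carrier of insulin-like growth factors, at 46.5, 21.3 and 39.3 CPM against 5.24, 5.60 and 4.14 CPM. Both were called in the same direction in all 3 comparisons of raised concentrations. ELFN1, CNN1 and MRC2 had no count in the apicidin libraries and were at least 10.55-fold, 6.10-fold and 5.01-fold higher under mocetinostat, taking 3 counts per library as the floor, with MRC2 at 0 in batch 1 of mocetinostat too. HTRA3, ZNF114, NPDC1, CLDN2 and FAM25C had 1 to 3 counts in all over the apicidin libraries. For HTRA3 this gave a ratio of 68.6 with a 95% counting interval of 11.9 to 2750, and for CLDN2, for a pore-forming claudin, a ratio of 51.0 with an interval of 13.8 to 427. On the side of apicidin DCDC1 and SLC6A16 had 1 and 2 counts under mocetinostat, with ratios of 50.5 (8.67 to 2035) and 22.3 (5.82 to 190). These intervals cover counting error only.

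The transcripts of the deacetylases themselves were not called. Among the class I enzymes HDAC1 was at 35.6 and 24.0 CPM, HDAC2 at 612 and 606 CPM, HDAC3 at 108 and 102 CPM and HDAC8 at 14.4 and 18.1 CPM, as means under mocetinostat and apicidin. The 95% intervals of the log2 differences were -0.29 to 1.42 for HDAC1, -0.25 to 0.28 for HDAC2, -0.31 to 0.49 for HDAC3 and -1.19 to 0.52 for HDAC8, so that differences of over 1.5-fold lie outside the intervals of HDAC2 and HDAC3 and not outside those of HDAC1 and HDAC8. None of 15 deacetylase features passed, with edgeR adjusted p of 0.202 to 0.987 and a median of -0.24, and none of 37 features of the corepressor complexes that carry the enzymes, with a median of -0.19. Of 31 respiratory chain features 30 had a negative difference, with a median of -0.42. None reached the fold change needed for a call, and the lowest adjusted p was that of NDUFB3, a subunit of complex I (702 and 1002 CPM, log2 difference -0.51 ± 0.14, edgeR adjusted p = 0.0355).

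Transporters, chaperones and other groups held fewer calls. Of 20 organic ion transporter features 3 were called, all higher under mocetinostat (2.84% of all tested), with none called without batch 2, without batch 3 or in the 6 libraries alone, among them ABCG2_39, for an exporter of drugs (70.9, 26.6 and 38.5 CPM against 21.2, 8.28 and 7.50 CPM), whose other probe was not called,, and SLC47A1, an exporter of organic cations (37.4, 52.3 and 50.4 CPM against 22.4, 17.01 and 15.3 CPM). Of 35 bile acid features 1 was higher and 2 were lower, with a median of -0.11, the former a share near that of all tested features (2.84%). The higher one was ABCB4, with no count under apicidin or in batch 1 of mocetinostat, and the lower ones were BAAT and AKR1C4. Heat shock genes had 2 higher and 1 lower of 23 with a median of 0.07. Epithelial and contractile genes had 3 higher and none lower of 19 with a median of -0.03 (all tested features, 2.84% and 0.753%). Without batch 1 or batch 2 neither list had a call. The other 27 of 44 lists had 0 to 2 called features each, 11 of them none, and medians from -0.97 for the globins, with 2 features tested, to 0.91 for targets and antagonists of Wnt.

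**Figure D5:**
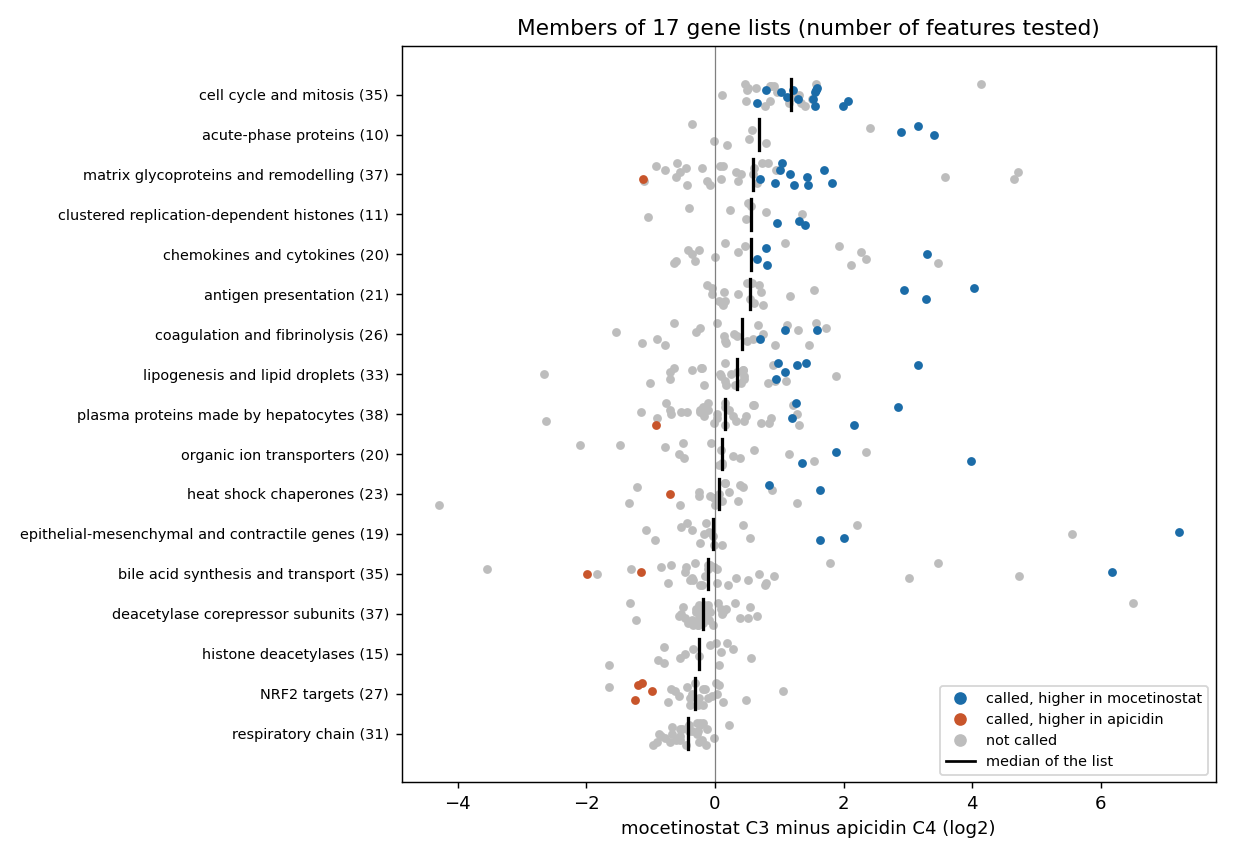
Log2 difference between mocetinostat C3 and apicidin C4 of each tested feature of 17 gene lists, coloured where called, with the list median as a black line. The cell cycle list, at the top, has a median of 1.18 and all 35 features above 0, and the respiratory chain, at the bottom, a median of -0.42 and 30 of 31 below 0.

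At C1 against C1, with 0.177 µM mocetinostat and 0.0417 µM apicidin, all 22 called features were higher under mocetinostat, and 17 of them (77.3% of the 22 and 3.46% of the 491) were called in that direction between the matched groups. They included SAA1, SAA2, ORM1, FGG, FASN, PLIN2 and DRAXIN from above, and ACSL4 and ACSL5, which activate fatty acids, CA12, a carbonic anhydrase, and KRT14, a keratin of basal epithelia, which were named after their values were seen. ACSL4 was at 1910, 1981 and 1978 CPM in the mocetinostat C3 libraries and at 876, 935 and 852 CPM in the apicidin C4 libraries, a log2 difference of 1.14 that was -0.88 at C5 against C5. The difference between the compounds was not the same at C5. For 285 features (2.08%) the difference between the matched groups and that between C5 and C5 themselves differed, 250 of them toward mocetinostat in the matched groups and 35 toward apicidin.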

How the data were processed

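HepaRG lysates were measured by TempO-Seq, and the authors deposited 1 table of raw read counts per probe for 118 libraries, with no normalization. Per the submitters' processing notes, which give no order or role, bcl2fastq 2.20.422, fastp 0.23.2, STAR 2.7.10b and DESeq2 1.38.0 were used. The genome build is not given in the sources used here. Of 22069 rows 22068 were used, since the last one, SEC13, was incomplete, and 0 columns lacked a sample.

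Totals were 3045318 to 5250260 counts in the 30 libraries of mocetinostat and apicidin, and 1061359 to 5250260 over all 118. Features with too few counts were removed by edgeR's filter (minimum count 10), which left 13684 features of 12287 symbols. TMM-normalised counts scaled to a common library size are given as CPM. Groups were compared with edgeR 4.0.16 (quasi-likelihood test, R 4.3.3) in 1 model of the 10 groups with no block. A feature was called at a Benjamini-Hochberg adjusted p below 0.05 with at least a 1.5-fold change. Log2 differences are given ± SE. Replicates came from 3 batches of cells. The deviations of same-batch libraries of the 2 groups correlated at 0.589, 0.315 and 0.268, so the numbers pair these samples, most in batch 1. Over all 10 groups the median correlation was 0.0229 within a batch and -0.0120 between batches, so the pairing was weak over the groups as a whole. The main model did not use the pairing. With the replicate block it called 422 features higher and 119 lower under mocetinostat. No library was a duplicate of another. On simulated data with 13684 features the model found 26 of 100 features changed 2-fold and 78 of 100 changed 4-fold, with 1 false call, so smaller differences were often missed.

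The members, gene lists and tests were chosen with earlier results of these data known. The features named were, in each direction, the 12 called features with the largest difference, no overlap and at least 10 counts in the higher group, the up to 3 called features of each list with the lowest p (or the 1 with the lowest p), all tested deacetylases, and the 6 with the largest smallest difference among features called one way in all 3 comparisons of raised concentrations. Further called members of a list, features called at C1 or between responses, and others outside this rule were named after their values were seen. DESeq2 1.42.0, RLE size factors, no filter, equal depth, the replicate block, the 6 libraries alone and leaving out libraries were the alternatives. Promoter windows of RefSeq (GRCh38.p14) were searched for CCAAT and TTTGAA on both strands.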

Additional observations from a re-analysis of the deposited data

Results flagged for a closer look

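For 26 of the named features the difference between the compounds depended on the concentrations compared. The value given is the log2 difference between mocetinostat C3 and apicidin C4 minus that between mocetinostat C5 and apicidin C5, tested as 1 contrast in edgeR, with adjusted p from 7.32e-09 to 0.0481. The C5 libraries are others than those of the matched groups, and were not matched by size of response.

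FGG_23945, for a chain of fibrinogen, had the lowest adjusted p, with a value of 2.37 (7.32e-09). FGB_2397 had 1.68. PLIN2_21957, of lipid droplets, had 2.49, since it was higher under mocetinostat in the matched groups and lower at C5. The features AGPAT2_163 (1.63), CYP2E1_1722 (2.61), LAMA3_3717 (1.26), CTSL_1645 (1.02), CFB_872 (1.18) and CXCL2_28232 (1.15) were higher under mocetinostat in the matched groups, with a difference below 0 but not called at C5. ABCB4_23846 (8.44) had no count in the apicidin C4 libraries, so this size depends on the prior count.

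In the acute-phase and plasma features the matched difference was the larger one, with 1.535 for SAA2_33831, 1.48 for LBP_89491, 1.51 for SERPINF2_19344 and 1.05 for ORM1_4833. In the features higher under apicidin the C5 difference was the larger one. The values were 1.69 for AKR1C1_199, 2.13 for AKR1C3_203, 1.96 for AKR1C3_26820, 1.99 for AKR1C4_89565, 1.54 for HSPB8_15039, 1.215 for PPARGC1A_12225, 1.13 for MYC_4394 and 0.997 for GBE1_11434, which was not called between the matched groups. Both probes of TIMP1 were further apart at C5, with -0.98 for TIMP1_13877 and -1.19 for TIMP1_7107. MT2A_4334, a metallothionein, had -1.345, and SLC6A16_90238 had -5.70 with 2 counts over the mocetinostat C3 libraries. In both the difference changed sign. It was -0.47 in the matched groups (not called) and 0.88 at C5 for MT2A_4334, and -4.20 and 1.495 for SLC6A16_90238.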

How the results depend on the processing

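The sign of each of the 491 called features was kept under all alternatives except the fits of the 6 libraries alone, where 479 kept it. Those fits applied the filter on low counts again, and a feature that it removed had no sign there. The remaining features are therefore not shown to have reversed. The count of calls, by contrast, depended on the fit. With the 6 libraries alone it was 36 (32 higher under mocetinostat and 4 higher under apicidin), and with the replicate block added it was 1145 (832 and 313). With the replicate block in the model of 30 libraries it was 541, and 482 of the 491 were called. Without a filter 67 features were higher under apicidin. DESeq2 gave 44 calls at C1, 88 between the responses and 440 for the dependence on concentration, and the replicate block gave 40 between the responses. The share of calls higher under mocetinostat was 79.0% and lay between 72.2% and 90.4% under the alternatives.

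Leaving out 1 replicate or library gave 83 to 490 calls between the matched groups (75 to 354 higher under mocetinostat, 8 to 136 higher under apicidin), with 292 without apicidin C4 of batch 2 and 285 without that of batch 3. It gave 1 to 10 at C1, 547 to 1010 at mocetinostat C4 against apicidin C3, 698 to 1486 at C5, 0 to 2 between the responses, 30 to 102 for the dependence on concentration, 45 to 121 for features called in all 3 comparisons, and 933 to 1583 and 873 to 1567 against C1 for mocetinostat and apicidin. These fits hold fewer samples.

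Some list medians moved. With the 6 libraries alone, and then with the replicate block added, the medians were -0.135 and -0.146 for deacetylases, -0.0749 and -0.0538 for bile acid genes, 0.452 and 0.456 for lipogenesis, 0.132 and 0.101 for heat shock genes and 0.2805 and 0.3595 for chemokines, and with the block 0.807 for acute-phase genes. At equal depth they were 1.001 for acute-phase, -0.125 for bile acid and 0.101 for heat shock genes. Bile acid genes had -0.0880 with DESeq2, -0.0886 with RLE size factors, -0.0844 with no filter and -0.0952 with the replicate block, and heat shock genes 0.0899 with no filter and 0.0318 with the block. With 1 replicate or library left out, medians ranged from -0.375 to 0.0663 for deacetylases, -0.301 to -0.0471 for corepressors, 0.354 to 0.902 for clustered histones, -0.0229 to 0.282 for plasma proteins, 0.584 to 1.185 for acute-phase genes, -0.132 to 0.0397 for bile acid genes, 0.0893 to 0.398 for organic ion transporters, 0.238 to 0.514 for lipogenesis, -0.107 to 0.289 for heat shock genes, 0.937 to 1.231 for cell cycle genes, 0.408 to 0.740 for chemokines, 0.307 to 0.758 for matrix genes, -0.101 to 0.155 for epithelial and contractile genes and -0.552 to -0.347 for the respiratory chain. The cause of these shifts was not tested. Features with few counts have wide errors, and 3 libraries a group limit the differences that can be called.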
